A study of Mus musculus with 40 samples.

Results

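RNA of the amygdala was compared with RNA of the hippocampus in mice that carry either of 2 forms of Dio2, the gene of the type 2 deiodinase. The comparison took all arrays whose labels name one of these regions, 16 of the 40 arrays in the study. There were 4 amygdala arrays from Ala92 mice, 4 amygdala arrays from Thr92 mice, 4 hippocampus arrays from Ala92 mice and 4 hippocampus arrays from Thr92 mice. The genotypes, called Ala and Thr below, appear in the labels as Ala92D2HY and Thr92D2HY on a background strain spelled C56BL/6. The animals were 8 to 10 weeks old and were kept at 22 °C on chow, and no group received a treatment. The other 24 arrays, from cerebellum, prefrontal cortex and striatum, served only to place each gene's level among 5 regions. No label ties an array to an animal, so the p-values measure the spread between arrays, which may in part be technical.

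The amygdala is a group of nuclei of the temporal lobe that takes part in fear, appetite and social behaviour. Its basolateral nuclei hold cortex-like glutamatergic neurons, and its central and medial nuclei hold many GABAergic, peptide-releasing neurons. The hippocampal formation consists of the dentate gyrus, built of densely packed granule cells, and the pyramidal cell fields CA3, CA2 and CA1, with the subiculum as an output field. The type 2 deiodinase makes the active thyroid hormone T3 from T4, and the type 3 deiodinase inactivates both hormones.

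Levels are log2 intensities of 1 probe set per gene, and a difference is the amygdala mean minus the hippocampus mean, so 1 log2 unit is a doubling of the signal. The medians of all probe sets lay between 6.14 and 6.22 on the 16 arrays, and the medians of the negative-control probe sets between 5.74 and 5.99. A gene whose mean is near or below 5.99 therefore could not be told from background by its level. Precision is limited by the 8 arrays of each region. In dissected tissue, fewer cells of a type and less RNA per cell cannot be told apart.

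Markers of neighbouring tissue set several arrays apart. The mean level of 16 striatum markers was 11.25 on Ala amygdala array 1, against 8.30 to 9.28 on the other 7 amygdala arrays and 8.00 to 8.14 on the hippocampus arrays. The striatal dopamine receptor Drd2 stood at 9.97 on that array and at no more than 6.66 on any other amygdala array. The same array had the highest level of 10 cerebellum markers, 9.35 against 6.91 to 7.36 on the other amygdala arrays and 6.49 to 7.78 on the hippocampus arrays. The cerebellar GABA-A receptor subunit Gabra6 stood at 10.12 there and at no more than 6.29 on any other amygdala array. Ala amygdala array 2 had the highest level of 14 choroid plexus markers among amygdala arrays, at 7.31. Its mean over 14 CA1 pyramidal cell genes was 10.59, against 9.09 to 9.89 on the other amygdala arrays and 10.02 to 10.51 on the hippocampus arrays. It also had the highest amygdala levels of the dentate genes Cabp7, Prox1 and C1ql2. Its mean over 21 dentate granule cell genes, 8.08, was below the 8.18 of Ala amygdala array 1.

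Among hippocampus arrays, the choroid plexus markers stood highest on Ala hippocampus array 17, at 8.32, and on Thr hippocampus array 24, at 8.08. The plasma hormone carrier Ttr, which choroid plexus makes in quantity, reached 18.15 on the first of these arrays. The mean of 16 thalamus markers was 9.12 and 8.55 on Thr hippocampus arrays 23 and 24, against at most 7.39 on the other 14 arrays. Tcf7l2, a transcription factor of thalamic neurons, stood at 13.69 and 12.80 there. On the log2 scale, the summed level of the striatum markers ran from 15.24 to 18.52 in amygdala and from 14.39 to 14.71 in hippocampus. That of the thalamus markers ran from 12.33 to 13.22 in amygdala and from 12.11 to 15.14 in hippocampus, and that of the choroid plexus markers from 9.54 to 16.96 in amygdala and from 10.90 to 18.18 in hippocampus. The part of this tissue in single results was not tested, and counts are given below with and without the arrays concerned.

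**Figure D1:**
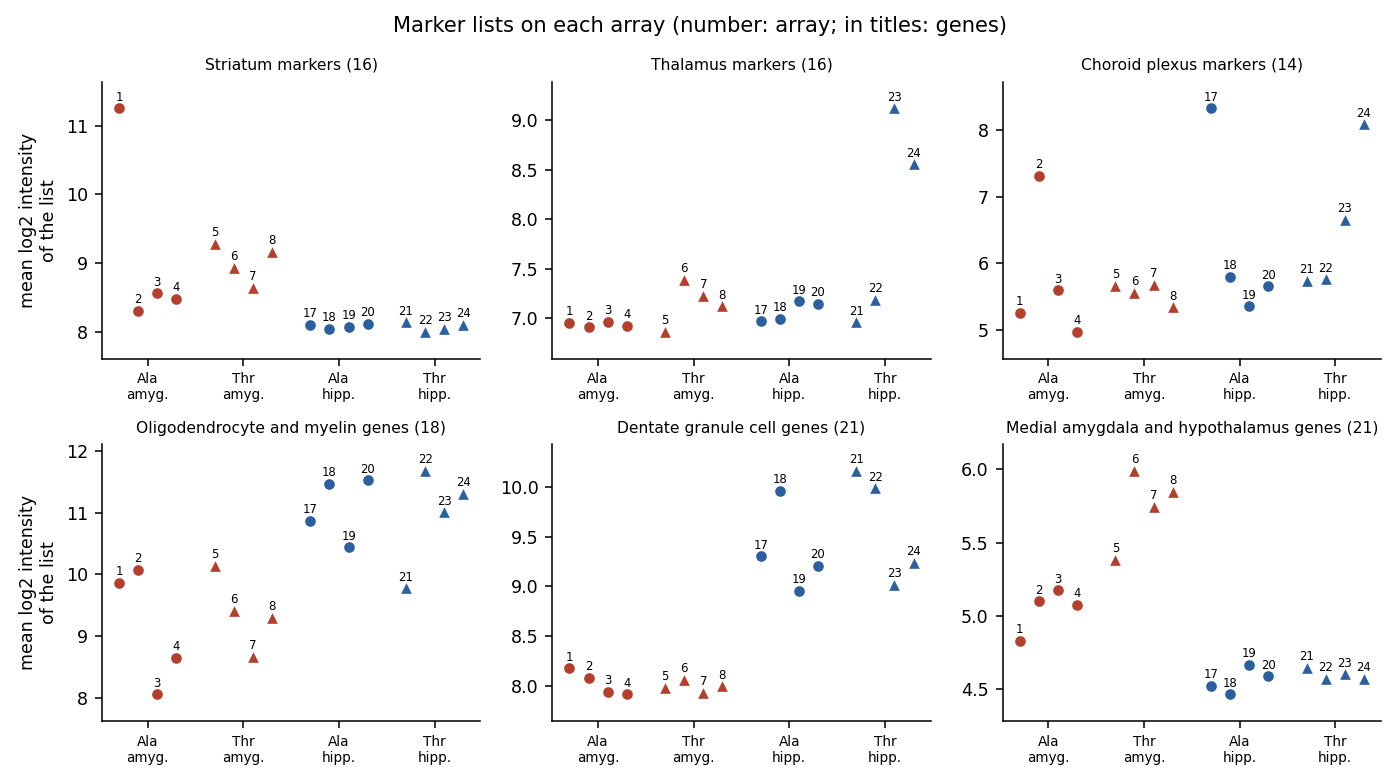
Mean log2 intensity of 6 marker lists on each of the 16 arrays (circles Ala, triangles Thr, red amygdala, blue hippocampus; numbers are the label numbers of the arrays). Striatum markers stand out on Ala amygdala array 1 at 11.25 and thalamus markers on Thr hippocampus arrays 23 and 24 at 9.12 and 8.55, while the dentate list separates the regions, with amygdala arrays at 7.91 to 8.18 and hippocampus arrays at 8.96 to 10.16.

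Some marker lists of the labelled regions separated the arrays by their mean log2 level, and others did not. The lists were chosen with earlier results of these data known, so this separation is a description and not an independent check. The mean level of 21 dentate granule cell genes ran from 7.91 to 8.18 in amygdala and from 8.96 to 10.16 in hippocampus, with no overlap. That of 20 amygdala markers ran from 8.69 to 10.03 in amygdala and from 7.88 to 8.55 in hippocampus, again with no overlap. The list of hippocampal field factors did not overlap either, at 8.53 to 9.03 in amygdala and 9.40 to 9.63 in hippocampus. The CA1 list overlapped, at 9.09 to 10.59 and 10.02 to 10.51, as did the CA2 and CA3 list, at 8.51 to 9.07 and 8.64 to 9.385. The subiculum list overlapped and leaned toward amygdala, at 7.35 to 8.94 against 6.79 to 8.04. The summed levels of the dentate list and the amygdala markers overlapped as well. On the log2 scale, that of the dentate list ran from 15.79 to 16.52 in amygdala and from 15.85 to 17.08 in hippocampus. That of the amygdala markers ran from 16.51 to 18.38 in amygdala and from 16.16 to 16.96 in hippocampus. Of these 20 markers, 18 passed the filter on dim genes, 7 were higher in amygdala and 1, Lhx9, was lower.

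The 2 regions differed in similar numbers of genes in each direction. Of 14643 genes tested, 348 were higher in amygdala and 365 were lower, at an adjusted p under 0.05 in limma and a difference of at least 1 log2 unit. These calls make up 2.38% and 2.49% of the genes tested, or 4.87% together, and every count of called genes below can be read against them. Without a minimum size, 2592 genes (17.7%) passed the adjusted p. The median difference over all genes was 0.00, a balance that normalization between arrays sets. The amygdala and hippocampus arrays did not overlap at all for 582 genes (3.97%), among them 167 of the 348 and 190 of the 365. Without Ala amygdala arrays 1 and 2 and Thr hippocampus arrays 23 and 24, called the 4 set-apart arrays below, the counts became 430 and 505, and 688 of the 713 genes kept their call. With Ala hippocampus array 17, high in choroid plexus markers, and Thr amygdala array 5, picked for its low Trh and Trhr, also left out, the counts without these 6 set-apart arrays were 460 and 508, with 684 kept.

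**Figure D2:**
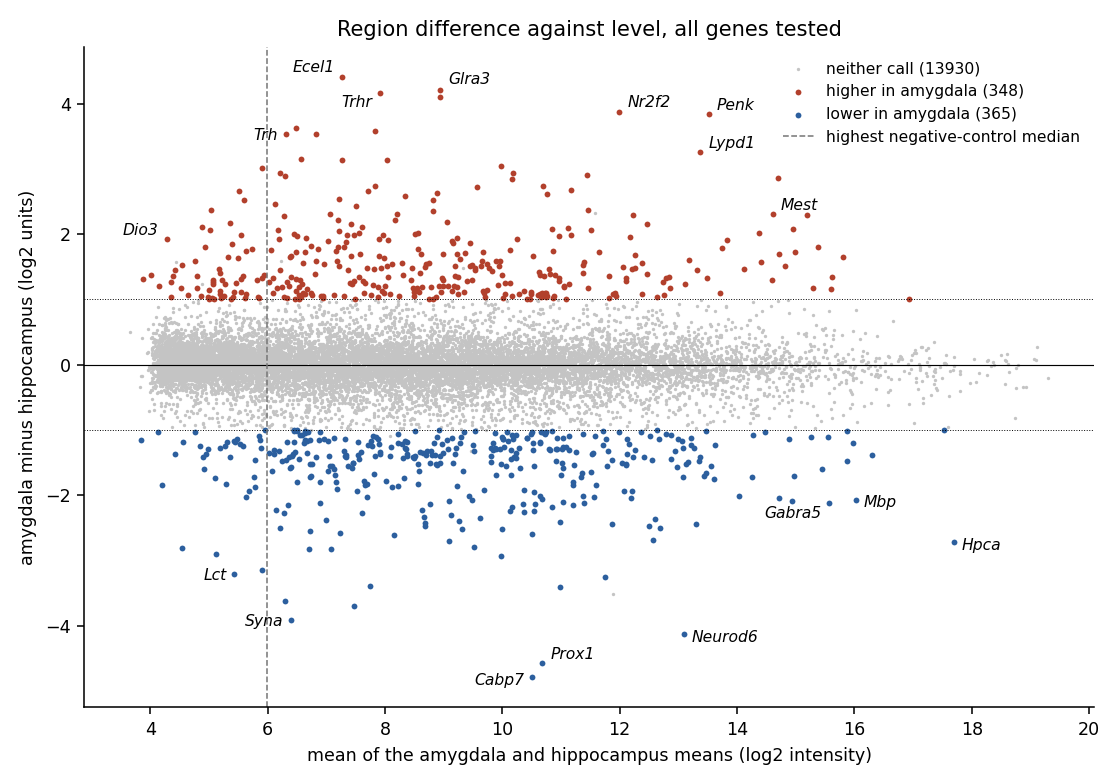
Difference between amygdala and hippocampus (log2 units) against the mean level of both regions (log2 intensity) for each of the 14643 genes tested. The 348 genes called higher in amygdala (red) and the 365 called lower (blue) lie at all levels, with Ecel1 at 4.40 and Cabp7 at -4.79 as the extremes; dotted lines mark 1 log2 unit and the dashed line the highest negative-control median.

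The genes with the greatest positive differences included hormone and peptide signalling genes. Ecel1, a membrane metallopeptidase of the neprilysin family, had a lowest, median and highest level of 7.28, 9.60 and 11.05 in amygdala, against 4.67, 4.94 and 5.77 in hippocampus. All 8 amygdala arrays lay above all hippocampus arrays, and the difference was 4.40 ± 0.36 log2 units (SE; adjusted p = 4.51e-08). Glra3, a subunit of the inhibitory glycine receptor, followed at 9.56, 11.27 and 12.20 in amygdala and 6.16, 6.70 and 8.11 in hippocampus, a difference of 4.20 ± 0.26 (adjusted p = 1.41e-09). Again no amygdala array was as low as any hippocampus array.

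Thyrotropin-releasing hormone and its receptor both stood among the 15 greatest positive differences. Trhr, the receptor, had 7.64, 10.32 and 11.66 in amygdala (lowest, median and highest) and 5.17, 5.82 and 6.89 in hippocampus, a difference of 4.16 ± 0.44 (adjusted p = 1.24e-06). The regions did not overlap, and the 2 lowest amygdala arrays were Ala array 1 and Thr array 5. Trh, the peptide precursor, had 4.90, 9.23 and 10.01 in amygdala and 4.06, 4.47 and 5.26 in hippocampus, a difference of 3.53 ± 0.64 (adjusted p = 0.000436). Its amygdala arrays split widely: Ala array 1 stood at 4.90 and Thr array 5 at 5.06, within the hippocampus range, and Ala array 2 at 6.71, whereas the other 5 lay at 9.12 or above. Without the 4 set-apart arrays, which were chosen for other markers, the Trh difference was 4.39 and that of Trhr 4.50.

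Nr2f2, an orphan nuclear receptor that patterns the caudal forebrain, had 11.30, 14.24 and 15.06 in amygdala and 9.39, 10.06 and 10.72 in hippocampus (difference 3.86 ± 0.35, adjusted p = 1.43e-07). Every amygdala array lay above every hippocampus array, and Ala amygdala array 1, the one high in striatum and cerebellum markers, was the lowest of the 8. Arhgap6 was higher by 4.11, the hair-cell exocytosis protein Otof by 3.63 and the R-cadherin gene Cdh4 by 3.53. Lypd1, a membrane-anchored modulator of nicotinic receptors, was higher by 3.26 with the smallest standard error of this group, 0.18. The other genes of the 15 were Penk, AW551984, Coch, Sema3a, Gpx3 and Tac1, with differences of 3.04 to 3.84.

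The genes with the greatest negative differences were led by dentate granule cell genes. Cabp7, a calcium-binding protein of the calmodulin family, had 7.22, 7.79 and 10.93 in amygdala and 12.46, 12.81 and 13.53 in hippocampus, a difference of -4.79 ± 0.35 (adjusted p = 1e-08). The highest amygdala value came from Ala array 2 and was still below all hippocampus arrays. Prox1, the homeobox factor that keeps granule cell identity, had 7.99, 8.12 and 9.55 in amygdala and 11.87, 12.86 and 14.28 in hippocampus, a difference of -4.58 ± 0.28 (adjusted p = 1.31e-09). Its regions did not overlap either.

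Neurod6, a helix-loop-helix factor of pyramidal neurons, had 9.39, 10.71 and 13.54 in amygdala and 14.71, 15.13 and 15.73 in hippocampus (difference -4.13 ± 0.37, adjusted p = 1.25e-07). The amygdala arrays were spread over more than 4 log2 units, with Ala arrays 1 and 2 highest, and the hippocampus arrays kept within about 1. Further down came Syna (-3.91), a placental fusion protein derived from a retroviral envelope, C1ql2 (-3.70), a C1q-like protein secreted at mossy fibre synapses, and Olfml2b (-3.62). Lct, the gene of lactase, was lower by 3.21 log2 units and Rasd1, a Ras-related protein induced by glucocorticoids, was lower by 3.15. Amygdala means lay below the highest negative-control median, 5.99, for 8 of these 15 genes: Lct, Rasd1, Dsp, Syna, Olfml2b, Ccbe1, C1ql2 and Kl. Among the 15 genes at the other end, the same held for the hippocampus means of 7, namely Ecel1, Trh, Trhr, Otof, Cdh4, Coch and Sema3a. The differences of these 8 and 7 genes run down to background in 1 region, so their sizes and their order are limited by it. The remaining genes of the 15 were St18, Npnt, Shisa6, Sema5a, Dsp, Ccbe1 and Kl, at -2.82 to -3.41. Kl, which choroid plexus also makes, was highest on Ala hippocampus array 17 and Thr hippocampus array 24, the arrays rich in choroid plexus markers, and its difference was -2.72 without the 6 set-apart arrays.

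**Figure D3:**
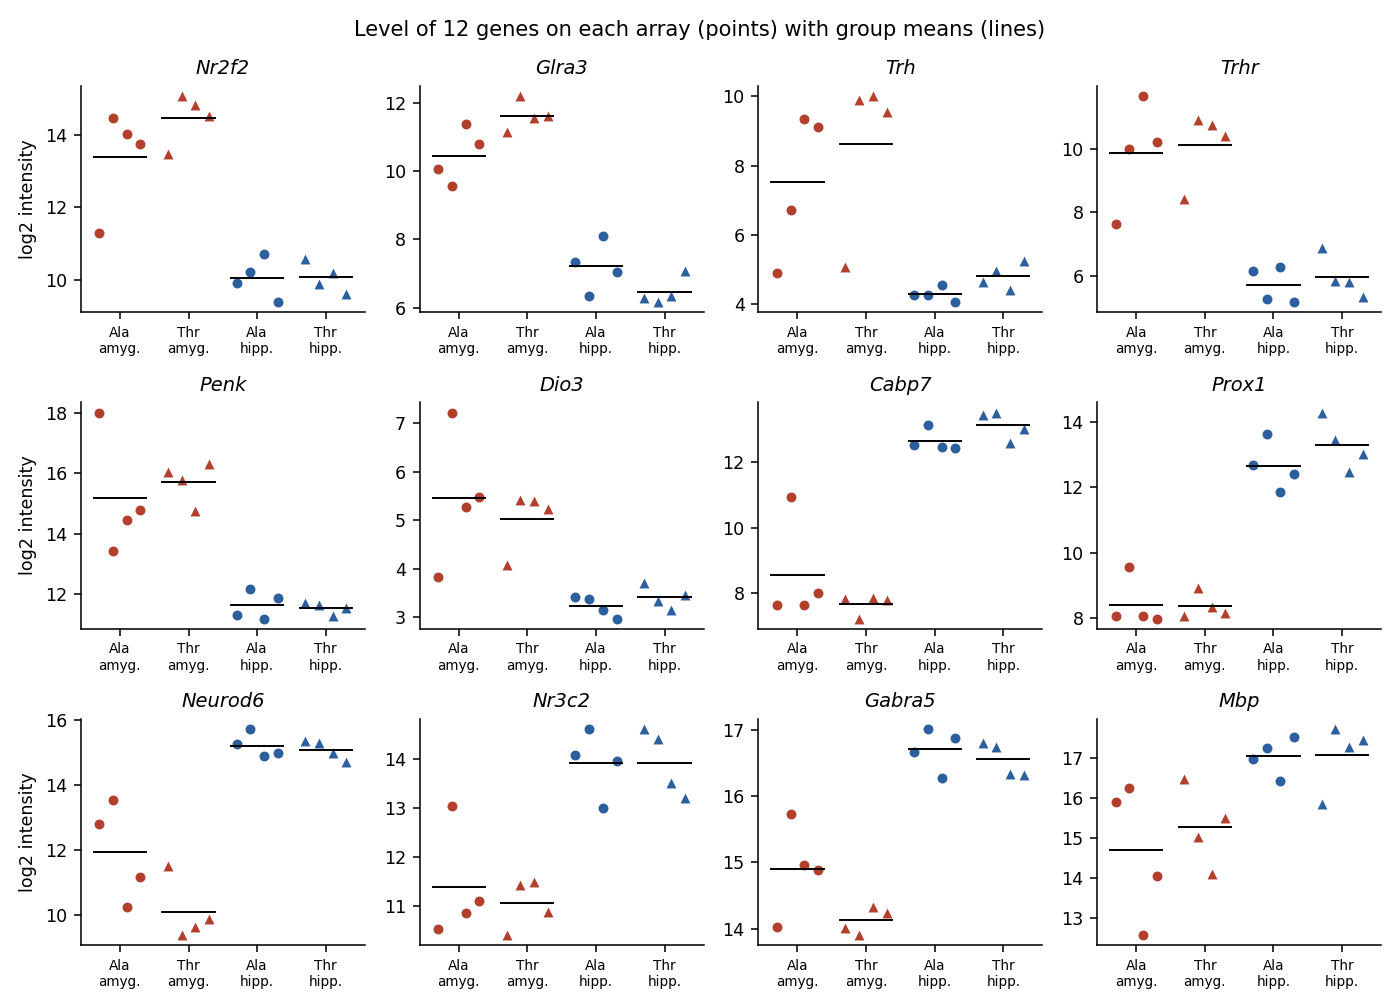
Log2 intensity of 12 genes on each of the 16 arrays (circles Ala, triangles Thr, red amygdala, blue hippocampus; lines are means of 4 arrays). Nr2f2, Glra3, Trhr and Penk are higher on all 8 amygdala arrays, Cabp7, Prox1, Neurod6 and Gabra5 higher on all 8 hippocampus arrays, and Trh stands at 4.90 and 5.06 on 2 amygdala arrays, within the hippocampus range.

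The windows around the transcription start of 4 genes are shown to let their sequence be read beside the values: Trh and the deiodinase gene Dio3, of thyroid hormone signalling and higher in amygdala, and Prox1 and Cabp7, the 2 most negative differences. Each runs from 250 bases before to 50 bases after the start in RefSeq's GRCm38.p6 annotation and is written 5′ to 3′ on the gene's strand. Capitals mark 2 motifs, searched on both strands: the nuclear receptor half-site AGGTCA or TGACCT, to which thyroid hormone and retinoid receptors bind, and the E-box CAGATG or CATCTG, to which proneural factors of the Neurod family bind.
Trh, chr6:92244601-92244900, minus strand: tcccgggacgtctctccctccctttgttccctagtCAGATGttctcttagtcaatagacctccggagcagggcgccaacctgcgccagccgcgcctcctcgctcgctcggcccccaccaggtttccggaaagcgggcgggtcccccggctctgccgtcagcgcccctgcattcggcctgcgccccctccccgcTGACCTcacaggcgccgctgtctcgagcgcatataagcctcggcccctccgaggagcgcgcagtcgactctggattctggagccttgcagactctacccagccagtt
Dio3, chr12:110278980-110279279, plus strand: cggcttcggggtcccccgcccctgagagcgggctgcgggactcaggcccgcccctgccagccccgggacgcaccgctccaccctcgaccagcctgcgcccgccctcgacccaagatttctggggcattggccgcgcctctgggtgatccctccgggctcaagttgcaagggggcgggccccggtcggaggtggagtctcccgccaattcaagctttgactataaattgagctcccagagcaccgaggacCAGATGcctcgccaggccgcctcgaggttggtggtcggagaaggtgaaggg
Prox1, chr1:190170778-190171077, minus strand: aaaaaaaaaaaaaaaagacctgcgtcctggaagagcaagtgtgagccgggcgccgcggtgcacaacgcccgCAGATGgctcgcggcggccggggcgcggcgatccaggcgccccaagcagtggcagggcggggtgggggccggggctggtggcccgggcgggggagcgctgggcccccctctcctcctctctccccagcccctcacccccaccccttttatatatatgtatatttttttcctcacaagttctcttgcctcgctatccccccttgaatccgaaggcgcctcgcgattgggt
Cabp7, chr11:4747130-4747429, minus strand: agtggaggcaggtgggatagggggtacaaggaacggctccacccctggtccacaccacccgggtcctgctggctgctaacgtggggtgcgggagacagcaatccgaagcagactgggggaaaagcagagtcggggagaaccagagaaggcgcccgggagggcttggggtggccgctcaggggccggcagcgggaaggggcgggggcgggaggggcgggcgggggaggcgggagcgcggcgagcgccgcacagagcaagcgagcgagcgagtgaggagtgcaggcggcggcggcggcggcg

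The Trh window holds 1 half-site and 1 E-box, the Dio3 and Prox1 windows 1 E-box each and the Cabp7 window neither. Prox1 has 2 such windows, of which 1 is shown. The half-site was present in 10.6% of 265 windows of genes higher in amygdala and in 13.0% of 284 windows of genes lower there, against 12.8% of the 11817 genes tested that have a window. For the E-box the shares were 15.8% and 15.1%, against 12.8%. A match describes the letters of a window and is not evidence of binding.

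Genes of the central amygdala and of its neighbouring intercalated neurons included several that were higher. Of 19 tested, 9 were higher, 9 passed in neither direction and 1 was lower, and the list's median difference was 0.75. Penk, the enkephalin precursor, had 13.42, 15.28 and 18.01 in amygdala and 11.20, 11.60 and 12.18 in hippocampus, a difference of 3.84 ± 0.43 (adjusted p = 2.17e-06). The regions did not overlap, and the highest amygdala value came from Ala array 1. Striatum, where Penk averaged 19.1, had the highest level of the 5 regions, and without the 4 set-apart arrays the difference was 3.50. Gpr101, an orphan receptor, was higher by 3.01, the peptide precursor Cartpt by 1.97 and the zinc-finger factor Tshz1 by 1.52. Prkcd, a protein kinase C that marks a class of central amygdala neurons but is also abundant in thalamus, went the other way, at 7.27, 8.08 and 8.48 in amygdala and 9.53, 9.90 and 12.61 in hippocampus. Its difference was -2.31 ± 0.28 (adjusted p = 5.07e-06), and the highest hippocampus array was Thr array 23, the one with the highest thalamus markers. Without the 4 set-apart arrays the difference was -2.11.

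Of 15 tested genes of the medial amygdala and hypothalamus, 5 were higher and none lower. They were Trh, Cartpt, the imprinted gene Peg10 (1.82), the GABA-A receptor subunit Gabrq (2.38) and the glycine receptor subunit Glra1 (1.08). The call of Glra1 rested on single arrays: its difference was 0.96 without Ala amygdala array 3, 0.90 without Thr amygdala array 6, 0.98 without Thr hippocampus array 21 and 0.97 without Thr hippocampus array 22. Without the 4 set-apart arrays it was 1.63.

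Genes of the dentate gyrus were mostly lower in amygdala. Of 20 dentate granule cell genes tested, 11 were lower in amygdala and 1 was higher, with a median difference of -1.46 and 9 genes whose regions did not overlap. Besides the genes already given, the lower genes included Npnt (-3.40), an extracellular matrix ligand of integrins, Dsp (-2.91), the desmosome protein desmoplakin, and Tdo2 (-2.82), the tryptophan-degrading dioxygenase. Both means of Tdo2, 3.13 in amygdala and 5.94 in hippocampus, lay below the highest negative-control median. The exception was Calb1, the calcium buffer calbindin, which was higher by 1.35 ± 0.21 (adjusted p = 0.000115) at 11.57, 12.57 and 13.04 in amygdala and 10.60, 11.06 and 11.75 in hippocampus. Its regions overlapped at the lowest amygdala array.

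CA1 pyramidal cell genes were lower in 7 and higher in 1 of 14 tested (median -0.97). The higher count was 2 without Ala amygdala array 1, Thr amygdala array 5 or Ala hippocampus array 19. The regions overlapped in the mean level of this list, which was highest on Ala amygdala array 2. On the log2 scale, its summed level ran from 15.73 to 17.74 in amygdala and from 15.63 to 16.56 in hippocampus. Nr3c2, the mineralocorticoid receptor, had 10.41, 10.99 and 13.03 in amygdala and 13.00, 14.01 and 14.60 in hippocampus, a difference of -2.69 ± 0.31 (adjusted p = 3.83e-06). The regions overlapped only through Ala amygdala array 2, and without the 4 set-apart arrays the difference was -3.18. Pou3f1, a POU-domain factor, was lower by 1.73 and Spink8, a protease inhibitor of CA1 cells, by 1.80, while Ccn3, a secreted matricellular protein, was higher by 1.80.

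CA2 and CA3 genes went both ways, with 7 lower and 4 higher of 20 tested (median -0.26). The lower genes included Dkk3 (-2.36), a Dickkopf-family secreted protein, the growth factor Tgfb2 (-2.26), the kainate receptor subunit Grik4 (-2.23) and Iyd (-1.79), the iodotyrosine deiodinase that recycles iodide in the thyroid. The 4 higher genes included Lypd1, the collagen gene Col6a1 (1.26) and the flavin monooxygenase Fmo1 (1.18). Subiculum genes leaned toward the amygdala, with 5 higher and 1 lower of 11 tested and a median of 1.48. Dlk1, a Notch-ligand-like membrane protein, had 4.81, 8.38 and 9.00 in amygdala and 4.12, 4.86 and 5.40 in hippocampus, a difference of 2.90 ± 0.43 (adjusted p = 5.62e-05). One amygdala array, Ala array 1, lay within the hippocampus range. The adhesion protein Cntn6 (1.69), Tpbg (1.67) and the calcium sensor Syt10 (1.52) were also higher, and Bcl6, a transcriptional repressor, was lower by 1.78.

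Transcription factors that pattern the forebrain divided between the regions. Of 38 regional factors tested, 9 were higher and 6 lower. Beside Nr2f2, Tshz1 and Meis1 (1.53), the homeobox factor Barhl2 was higher by 1.85. The difference of Meis1 was 0.65 in Ala and 2.42 in Thr mice, and its dependence on genotype did not pass the adjusted p (0.714 in limma). Bcl11a, a zinc-finger factor of cortical projection neurons, had 11.05, 11.41 and 11.95 in amygdala and 12.20, 12.90 and 13.10 in hippocampus, a difference of -1.38 ± 0.12 (adjusted p = 7.39e-08) with no overlap. Nfix, a nuclear factor I protein, was lower by 1.38 as well, again with no overlap. Of 16 tested factors of the hippocampal fields, 6 were lower, among them Neurod2 (-1.83) and Klf9 (-1.09), a Krüppel-like factor that thyroid and glucocorticoid hormones induce. Meis1 was the 1 higher member of that list.

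Neuropeptide precursors had mostly positive differences. Of 28 tested, 25 had a positive difference, 8 were higher and 1 was lower, with a median of 0.46 against 0.00 over all genes. The lower gene was Chgb, whose call was lost without any 1 of 6 arrays: Ala amygdala arrays 2 and 3, Thr amygdala array 7, Ala hippocampus array 18 and Thr hippocampus arrays 21 and 22. Tac1, the precursor of substance P, had 10.23, 11.68 and 13.45 in amygdala and 7.43, 8.54 and 8.94 in hippocampus, a difference of 3.04 ± 0.35 (adjusted p = 2.81e-06). The regions did not overlap. Adcyap1, the precursor of the peptide PACAP, was higher by 1.26 ± 0.20 (adjusted p = 0.000111) but lay near background, with medians of 5.65 in amygdala and 4.46 in hippocampus. Cartpt had 6.57, 7.34 and 8.53 in amygdala and 5.24, 5.46 and 6.10 in hippocampus (difference 1.97 ± 0.15, adjusted p = 2.67e-08), with no overlap.

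Peptide and hormone receptors followed, with 10 higher and 2 lower of 32 tested (median 0.29). The lower count was 1 without Thr amygdala array 5 or Thr hippocampus arrays 21 or 22. Oprk1 and Oprm1, the kappa and mu opioid receptors, were higher by 2.27 and 1.70, while Oprd1 and Oprl1 of the same family did not pass the size threshold, at 0.24 and 0.82. Tacr1, the receptor of substance P, had 5.66, 7.05 and 8.32 in amygdala and 3.76, 4.11 and 6.02 in hippocampus, a difference of 2.52 ± 0.27 (adjusted p = 1.22e-06). Its regions overlapped through Thr hippocampus array 23. Oxtr, the oxytocin receptor, was higher by 1.93 ± 0.29 (adjusted p = 7.74e-05), at 7.31, 8.98 and 9.91 in amygdala and 6.48, 6.88 and 7.34 in hippocampus, with the lowest amygdala array just inside the hippocampus range. Somatostatin receptors split, with Sstr2 higher by 1.59 and Sstr4 lower by 1.55.

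Inhibitory receptor subunits differed in both directions. Of 16 GABA-A and glycine receptor genes tested, 6 were higher and 1 was lower. Gabra3 had 12.26, 12.87 and 13.45 in amygdala and 8.69, 10.11 and 10.98 in hippocampus, a difference of 2.91 ± 0.29 (adjusted p = 4.44e-07). Gabra5, the alpha subunit of extrasynaptic receptors in the hippocampus, had 13.90, 14.28 and 15.73 in amygdala and 16.27, 16.70 and 17.01 in hippocampus, a difference of -2.12 ± 0.18 (adjusted p = 5.31e-08). Neither gene's regions overlapped. The subunits Gabrq (2.38) and Gabrg1 (1.50) were higher too, and the other 8 tested GABA-A subunits passed in neither direction. Of the 4 glycine receptor genes tested, Glra3, Glra2 (2.18) and Glra1 were higher and the beta subunit Glrb, at 0.01, was not called.

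Glutamate receptors and their partners showed the same kind of division. Of 20 AMPA and kainate receptor genes tested, 3 were higher and 4 lower, and the higher count was 5 without Ala amygdala array 2. Among the auxiliary subunits of AMPA receptors, Shisa6 had 8.89, 9.82 and 12.72 in amygdala and 12.30, 13.33 and 14.15 in hippocampus, a difference of -3.25 ± 0.38 (adjusted p = 3.95e-06). Ala amygdala array 2 alone reached into the hippocampus range. The cornichon Cnih2 (-1.55) and the TARP Cacng8 (-1.14) were lower too, whereas the TARP Cacng4 was higher by 1.08, or by 0.97 without Ala amygdala array 1. Grik4 was lower by 2.23 and Grik1 higher by 1.12. Of the NMDA receptor subunits, Grin2a was lower by 1.75 ± 0.14 (adjusted p = 5.31e-08) and Grin3a higher by 1.50 ± 0.18 (adjusted p = 6.77e-06), both with no overlap. Grm2, a presynaptic metabotropic receptor, was lower by 1.95.

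Receptors for the monoamines also differed by subtype. Of 18 serotonin, dopamine and adrenergic receptors tested, 4 were higher and 2 lower, and the lower count was 4 without Thr amygdala array 6 or 8. Drd5, a D1-class dopamine receptor, had 4.90, 5.47 and 6.08 in amygdala and 7.28, 7.92 and 8.96 in hippocampus, a difference of -2.55 ± 0.22 (adjusted p = 1e-07) with no overlap. The other D1-class gene, Drd1, was higher by 1.78 ± 0.38 (adjusted p = 0.00218), with its highest value, 9.80, on Ala amygdala array 1. Htr2c, a serotonin receptor, had 10.70, 12.78 and 13.14 in amygdala and 9.00, 9.59 and 11.06 in hippocampus, a difference of 2.67 ± 0.32 (adjusted p = 4.47e-06). Its lowest amygdala value, the only one inside the hippocampus range, was again that of Ala array 1. Htr1d (1.59) and Htr2a (1.34) were higher as well. Both means of Htr1d, 5.55 in amygdala and 3.96 in hippocampus, lay below the highest negative-control median.

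Genes of steroid, thyroid and retinoid signalling divided into 3 higher and 4 lower of 22 tested. Dio2 itself had 7.91, 8.57 and 9.15 in amygdala and 8.68, 9.38 and 9.55 in hippocampus. The regions overlapped in part, and the difference of -0.70 ± 0.17 passed the adjusted p (0.00566) but not the size of 1 log2 unit. It was -0.58 in Ala and -0.83 in Thr mice, and -1.01 without the 6 set-apart arrays. Dio3 had 3.83, 5.33 and 7.21 in amygdala and 2.97, 3.35 and 3.70 in hippocampus, a difference of 1.92 ± 0.32 (adjusted p = 0.000212). No amygdala array was as low as any hippocampus array, but both means, 5.24 and 3.32, lay below the highest negative-control median. Dio1 was not called, at 0.20 ± 0.18 (adjusted p = 0.543).

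Among the receptors of that list, Rxrg, a retinoid X receptor that pairs with thyroid and retinoic acid receptors, had 6.99, 7.67 and 8.50 in amygdala and 4.13, 4.90 and 5.75 in hippocampus. The regions did not overlap, and the difference was 2.93 ± 0.23 (adjusted p = 3.34e-08). Aldh1a1, a retinaldehyde dehydrogenase, was lower by 2.07 ± 0.14 (adjusted p = 8.18e-09) with no overlap. Sgk1, a kinase induced by glucocorticoids, was lower by 1.13. The thyroid hormone receptor Thra stood at 0.05, and Thrb at 0.88 ± 0.21, which passed the adjusted p (0.00422) but not the size threshold.

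Calcium sensors and second messenger enzymes gave 6 higher and 6 lower genes of 36 tested, with 3 higher when Ala amygdala array 1 was left out. Hpca, the calcium sensor hippocalcin, had 15.13, 16.04 and 17.88 in amygdala and 18.60, 19.06 and 19.38 in hippocampus, a difference of -2.72 ± 0.30 (adjusted p = 2.24e-06). Its paralog Hpcal1 had 14.06, 15.65 and 15.96 in amygdala and 12.88, 13.35 and 14.02 in hippocampus, a difference of 2.02 ± 0.22 (adjusted p = 1.69e-06). Neither pair of groups overlapped. The calmodulin-dependent adenylyl cyclase Adcy1 was lower by 1.94 and the kinase gene Prkca by 1.48. Adcy5, the main striatal adenylyl cyclase, was higher by 1.21, or by 0.98 without Ala amygdala array 1, on which it stood at 11.03.

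Ion channel genes were called in both directions. Of 52 potassium channel genes tested, 6 were higher and 6 lower, and the counts were 9 and 7 without the 4 set-apart arrays. Kcnab2, an accessory beta subunit, had 13.24, 13.84 and 14.56 in amygdala and 15.68, 16.05 and 16.23 in hippocampus, a difference of -2.09 ± 0.13 (adjusted p = 2.22e-09) with no overlap. Kcnf1, a silent subunit, was higher by 1.86, Kcna3 by 1.18, while the voltage-gated Kcna1 (-1.66), the G-protein-gated channel Kcnj6 (-1.70) and the calcium-activated channel Kcnn2 (-1.42) were lower. Of 26 sodium, calcium and TRPC channel genes tested, 2 were higher and 4 lower. The higher count was 1 without Ala amygdala array 2, Thr amygdala arrays 6 or 7, Ala hippocampus array 20 or Thr hippocampus arrays 22 or 23, and the lower count was 2 without Ala amygdala arrays 3 or 4. The atypical sodium channel Scn7a was higher by 1.74 and the TRPC channel Trpc6 lower by 1.91.

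Adhesion genes held the largest number of calls among the 45 lists, 17 higher and 8 lower of 49 tested. Among 16 cadherin genes named Cdh with a number, 6 were higher and 3 lower. Cdh22 had 7.51, 8.32 and 8.81 in amygdala and 5.70, 5.86 and 6.46 in hippocampus, a difference of 2.32 ± 0.14 (adjusted p = 1.31e-09), and Cdh13 was higher by 1.92. Cdh8 had 11.62, 12.33 and 12.50 in amygdala and 13.69, 13.96 and 14.17 in hippocampus, a difference of -1.72 ± 0.12 (adjusted p = 5.28e-09), and Cdh11 was lower by 1.31. The regions did not overlap for any of these 4 genes. Protocadherins were higher in 4 and lower in 1 of 9 tested, led by Pcdh7 (1.96), and Negr1, a membrane-anchored immunoglobulin protein, was higher by 1.79. Tenm1 was higher by 1.37 and its paralog Tenm3 lower by 1.21. Lrrtm3, a synapse-organising leucine-rich repeat protein, was higher by 2.07.

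Axon guidance genes included members of the Eph system called in each direction. Of 11 Eph receptors and ephrins tested, the 2 called higher were the ephrins Efnb2 (2.29) and Efna5 (1.88), and the 5 called lower were the receptors Epha4, Epha7, Epha6, Epha3 and Ephb1. Efnb2 had 12.62, 13.44 and 13.78 in amygdala and 10.24, 11.17 and 11.75 in hippocampus (adjusted p = 5.51e-08). Epha4 had 10.01, 11.04 and 12.20 in amygdala and 13.19, 13.66 and 14.32 in hippocampus, a difference of -2.48 ± 0.20 (adjusted p = 5.31e-08). Both separated all amygdala from all hippocampus arrays. Epha7 was lower by 2.05, Epha6 by 1.57, Epha3 by 1.41 and Ephb1 by 1.40, and no Eph receptor tested was called higher. The other 2 ephrins tested, Efna3 and Efnb3, were not called, at -0.25 and 0.14.

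Secreted and transmembrane guidance cues outside the Eph system went both ways, so that the whole guidance list held 6 higher and 9 lower genes of 38 tested. Sema3a was higher by 3.14 ± 0.32 (adjusted p = 7.37e-07), whereas its paralog Sema3e was lower by 2.41 ± 0.25 (adjusted p = 8.98e-07). Plxnd1, the receptor of Sema3e, had 7.13, 9.25 and 9.60 in amygdala and 5.41, 6.39 and 7.50 in hippocampus, a difference of 2.66 ± 0.34 (adjusted p = 1.06e-05). Its only amygdala value inside the hippocampus range was that of Ala array 2. The netrin receptor Unc5d was higher by 2.94 with no overlap, and Plxnc1 by 1.57.

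Presynaptic and activity-induced genes contributed fewer calls. Of 26 synaptotagmins and presynaptic genes tested, 4 were higher and 3 lower. Syt9 had 7.58, 8.64 and 9.22 in amygdala and 4.92, 5.83 and 9.78 in hippocampus, a difference of 2.16 ± 0.45 (adjusted p = 0.00156). Its 2 highest hippocampus values came from Thr arrays 23 and 24, the arrays rich in thalamus markers, and the difference was 3.06 without these and Ala amygdala arrays 1 and 2. The syntaxin Stx1a was higher by 1.55 and the synaptobrevin Vamp1 lower by 1.53. Of 22 immediate early genes tested, 3 were lower, namely Arc (-1.37), Nr4a3 (-1.70) and Bdnf (-1.27), and 1 was higher, a call that was lost without Thr hippocampus array 24. Among growth factors, Nrg1 was higher by 1.56.

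Genes of inhibitory neurons were higher in part. Of 19 interneuron genes tested, 5 were higher and 1 lower, with a median of 0.70. The GABA vesicle transporter Slc32a1 was higher by 1.10 and the GABA-synthesising enzyme Gad2 by 1.05. Without Ala amygdala array 1 these differences were 0.98 and 0.95, and both calls were lost. That of Gad2 was also lost without Thr amygdala array 6 (0.96) or Thr hippocampus array 23 (0.99). The somatostatin gene Sst, also in the central amygdala list, was higher by 1.01, and its call was lost under 7 alternatives. Among these were the fit of all 40 arrays (adjusted p = 0.0532 in limma) and the fit without Ala hippocampus array 18 (difference 0.84). The peptide gene Vip was higher by 1.22 ± 0.25 (adjusted p = 0.00157), and Calb2, the calcium buffer calretinin, by 1.58. Pvalb, the parvalbumin gene of fast-spiking interneurons, went the other way, at 6.06, 7.06 and 8.77 in amygdala and 7.59, 8.70 and 8.98 in hippocampus, a difference of -1.40 ± 0.29 (adjusted p = 0.00164).

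Of 15 striatum markers tested, 5 were higher and none lower, and 3 of those 5 (Penk, Tac1 and Drd1) have been given above. The phosphatase inhibitor Ppp1r1b was higher by 1.34 and the retinoic acid receptor Rarb by 1.07, and both stood highest on Ala amygdala array 1, at 11.54 and 10.08. Without that array their differences were 0.87 and 0.72, below the size threshold, and 3 striatum markers were higher. The Ppp1r1b difference kept a size of 1.18 to 1.38, but its adjusted p in limma rose to between 0.0508 and 0.0798, without any 1 of Thr amygdala arrays 5 and 8, Ala hippocampus arrays 17, 18 and 20 and Thr hippocampus arrays 21, 22 and 23. The Rarb call was also lost without Thr hippocampus array 22, where the difference of Rarb was 0.996. Without the 6 set-apart arrays, 3 striatum markers were higher and 2 lower.

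Oligodendrocyte and myelin genes were lower in amygdala throughout the list. Of 18 tested, 13 were lower and none was higher, all 18 differences were negative and the median was -2.08. Mbp, the gene of myelin basic protein, had 12.57, 15.27 and 16.47 in amygdala and 15.85, 17.25 and 17.72 in hippocampus, a difference of -2.07 ± 0.43 (adjusted p = 0.00177). The regions overlapped in part: Ala amygdala arrays 1 and 2 and Thr amygdala array 5 lay above the lowest hippocampus array, Thr array 21. Trf, the iron carrier transferrin, was lower by 2.45, and the myelin membrane genes Opalin (-2.35), Cnp (-2.13) and Mag (-2.12) and the lipid enzyme Fa2h (-2.10) were lower as well. Of the 18 genes, 1, Mag, had regions that did not overlap.

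The mean level of the myelin list ran from 8.05 to 10.14 within amygdala and from 9.77 to 11.68 within hippocampus, a wide range in each. The count of lower members was 14 when either the 4 or the 6 set-apart arrays were left out. The median over 10 tested genes of oligodendrocyte precursors was 0.04, with Lhfpl3 (1.55) higher and Bcas1 (-2.11), a gene of early myelinating oligodendrocytes, lower.

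Few astrocyte, microglia, endothelial or mural genes were called, whereas meningeal genes had more calls. Of 18 astrocyte genes 1 was called, Gfap, the intermediate filament of astrocytes, which had 8.92, 10.35 and 11.60 in amygdala and 11.31, 12.04 and 13.04 in hippocampus, a difference of -1.84 ± 0.36 (adjusted p = 0.000969). None of 15 microglia genes and none of 17 endothelial and mural genes was called in either direction, with medians of -0.06 and -0.05. None of 23 nuclear genes of oxidative phosphorylation and none of 15 ribosomal protein genes was called. Meningeal genes were higher in 5 of 12 tested with none lower, and the higher count was 8 without Thr amygdala array 5 and 3 without Thr amygdala array 7. The list includes Ptgds, the prostaglandin D synthase, at 13.11, 16.70 and 18.23 in amygdala and 12.79, 13.83 and 15.29 in hippocampus. Its difference was 2.30 ± 0.57 (adjusted p = 0.00722), with Ala array 1 and Thr array 5 low. The summed level of the meningeal list ran from 13.51 to 18.45 in amygdala and from 13.60 to 15.42 in hippocampus, on the log2 scale.

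Imprinted genes, which are read from 1 parental copy, drew attention only after the differences had been seen, so their count is a description and is not independent evidence. Of 32 tested, 10 were higher in amygdala, none was lower and 30 differences were positive, with a median of 0.84 against 0.00 over all genes. Mest, an alpha/beta hydrolase family gene, had 15.25, 15.73 and 16.34 in amygdala and 12.66, 13.58 and 14.08 in hippocampus, a difference of 2.31 ± 0.19 (adjusted p = 4.78e-08). Usp29 had 11.03, 11.97 and 13.19 in amygdala and 9.45, 10.14 and 10.31 in hippocampus, a difference of 1.97 ± 0.18 (adjusted p = 1.85e-07). Both separated the regions fully. Peg10 was higher by 1.82, Zim1 by 1.65, Zdbf2 by 1.63 and the growth factor receptor adaptor Grb10 by 1.40, and Plagl1 and Nnat by 1.98 and 1.47. The other 2 are Dlk1 and Dio3, which lie in 1 imprinted domain of mouse chromosome 12. Without the 4 set-apart arrays 14 imprinted genes were higher, and without the 6 set-apart arrays 15.

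**Figure D4:**
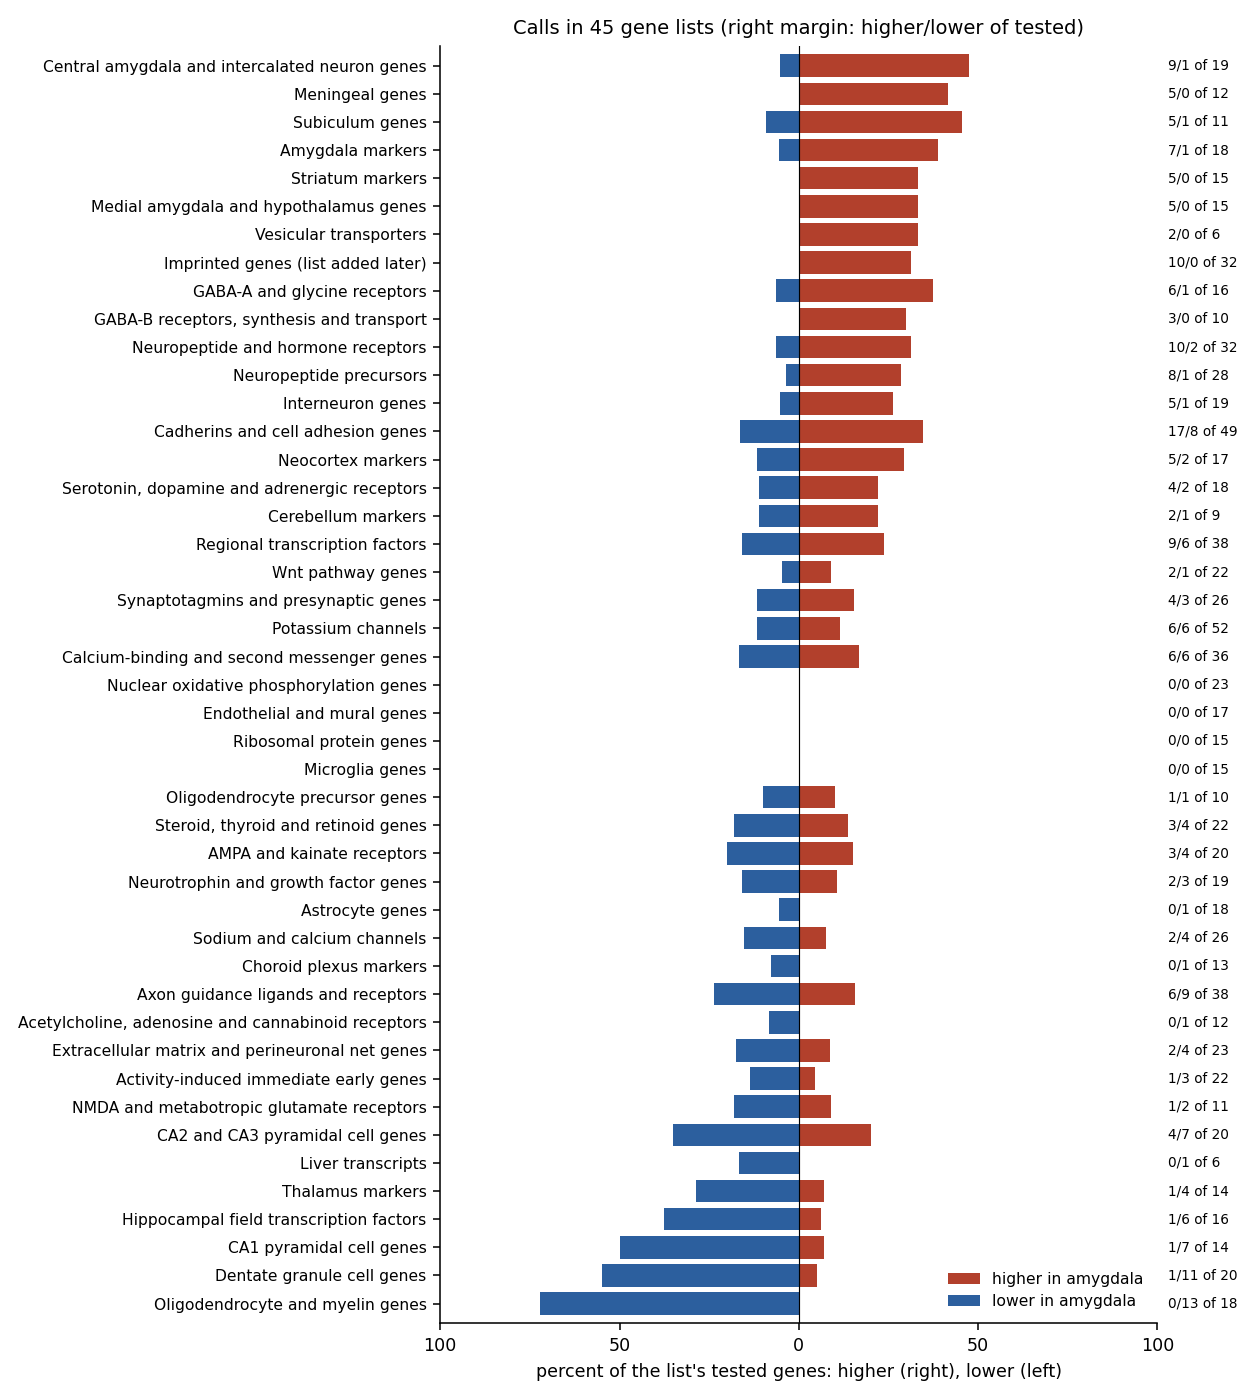
Percent of the tested genes of 45 lists that were called higher in amygdala (red, right) or lower (blue, left), with the counts in the right margin. The myelin list has 13 of 18 genes lower, the dentate list 11 of 20 lower and 1 higher, and the neuropeptide precursor list 8 higher and 1 lower of 28; 4 lists (microglia, endothelial, oxidative phosphorylation, ribosomal) hold no call.

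About as many called genes peaked in the region itself as in another of the 5 areas measured. Of the 348 genes higher in amygdala, 168 (48.3%) had their highest mean of the 5 regions in amygdala, against 16.2% of all genes tested. For 84 the highest mean was in striatum, for 51 in prefrontal cortex and for 45 in cerebellum. Of the 365 lower genes, 194 (53.2%) had their highest mean in hippocampus, against 13.5% of all genes, with 84 highest in cerebellum, 73 in striatum and 14 in prefrontal cortex. Hippocampus had the lowest mean of the 5 regions for 109 of the 348, and amygdala for 118 of the 365. These shares use the amygdala and hippocampus means that the calls also used, so they are descriptions.

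No gene's region difference was shown to depend on genotype. Whether the region difference depended on genotype was tested for each gene as an interaction in limma, and no gene of 14643 passed (0.0%; lowest adjusted p = 0.402). At an unadjusted p under 0.05 there were 589 genes, where 732 would be expected by chance. The interaction has a larger standard error than the region difference, 1.28 against 0.64 for Trh, so smaller dependences could be missed. All 713 called genes had the same sign in both genotypes. Within Ala arrays alone 541 genes (3.69%) were called and within Thr arrays 839 (5.73%), of which 454 were shared, 83.9% of the Ala calls and 54.1% of the Thr calls, none of them with opposite signs. Without Ala amygdala arrays 1 and 2 and Thr hippocampus arrays 23 and 24 the counts were 860 and 1062.

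The called genes had a median absolute difference of 1.30 log2 units in Ala mice and of 1.55 in Thr mice, and 543 of the 713 were larger in Thr. Of the 4 Ala amygdala arrays, 2 are among the set-apart arrays. Without the 4 set-apart arrays the medians were 1.52 in Ala and 1.71 in Thr mice, 469 of the 713 were larger in Thr and 711 had the same sign in both. Without the 6 set-apart arrays they were 1.53 and 1.76, with 490 larger in Thr. Across all genes tested, the 2 genotypes' differences correlated with a Pearson r of 0.795. Genes are not independent replicates, and the 2 genotypes share no array. The 6 genes with the smallest unadjusted p of the interaction were Barhl2, Rnf17, Gabrq, Pnma5, Gpx3 and Cartpt. Gpx3, a secreted glutathione peroxidase, stood at 7.87 to 8.66 on the Ala amygdala arrays and at 10.07 to 12.12 on the Thr amygdala arrays, and its region difference was 1.99 in Ala and 4.27 in Thr mice. For Gabrq these were 1.37 and 3.39, for Barhl2 0.81 and 2.89 and for Cartpt 1.26 and 2.67. Rnf17 went the other way, at 1.51 in Ala and -0.65 in Thr mice, and Pnma5 had -0.53 in Ala and 0.59 in Thr mice, both with means below the negative controls. The hippocampus means of Gabrq, Barhl2 and Cartpt, 3.85, 4.48 and 5.52, also lay below the highest negative-control median. So did all Ala amygdala arrays for Gabrq (4.73 to 5.51) and Barhl2 (4.79 to 5.85). The Ala differences of Gabrq and Barhl2 therefore lie within background. The 6 genes were picked for this contrast, and none passed the adjusted p.

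**Figure D5:**
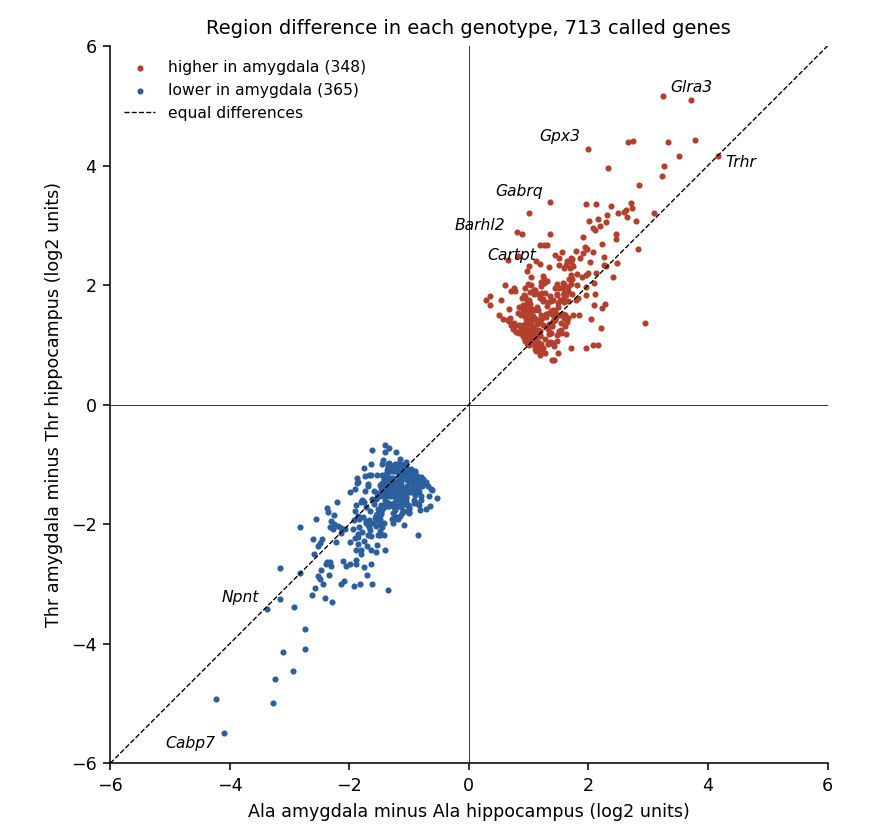
Amygdala minus hippocampus (log2 units) in Ala mice (horizontal) and in Thr mice (vertical) for the 713 called genes, red higher and blue lower in amygdala. All points lie in the quadrants of equal sign, and 543 have the larger absolute difference in Thr mice; the dashed line marks equal differences.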

How the data were processed

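RNA extracted with Trizol was labelled and hybridised to 1-colour Affymetrix arrays, per the labels' protocols. The deposited table holds log2 values that the authors made with RMA, per the submitters' processing notes; neither the software version nor the genome build is given in the sources used here. That method makes arrays comparable in distribution, so a change shared by most genes would be removed. The highest value was 19.93, above the 16 log2 units of a 16-bit scanner, so a further rescaling, not given in the sources, is part of the values and sizes hold on that scale only. No scaling was added, and no 2 arrays were identical.

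Of 28846 rows, 6640 were controls (5222 of them negative) and 2634 had no gene symbol. The other 19572 had 1 symbol in the platform annotation, all matched to RefSeq by gene ID. The row with the highest mean was kept for each of 19505 genes (55 had several), and genes above the 30th percentile of all transcript rows (4.42) on at least 4 of 16 arrays were tested. The limma test (3.58.1, R 4.3.3) fitted 4 group means with trended empirical Bayes. Calls needed a Benjamini-Hochberg adjusted p under 0.05 over all genes tested and at least 1 log2 unit, two-sided. On simulated data with 14643 genes, 46% of genes changed by 1 unit and 100% of those changed by 1.5 were called. A change of 1 unit lies at the size threshold itself, and 84% of those genes passed the adjusted p. Noise was drawn independently for each gene, so signal that many genes share on an array was not simulated. Tables and plots used pandas 2.3.3, numpy 2.4.6 and matplotlib 3.10.9.

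Named genes are the 15 greatest differences each way among called genes whose higher mean exceeded 5.99, up to 6 called members of each list by smallest p, whole families where named, the deiodinases, the 6 smallest interaction p-values, paralogs called in opposite directions, and defining markers. The members and the 44 lists (880 of 997 entries tested) were chosen with earlier results of these data known, and the imprinted list was added after the differences had been seen. List members not on the array were not analysed here. Alternatives varied the arrays in the fit, filter, scaling, variance model, thresholds and tissue-marker covariates.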

Additional observations from a re-analysis of the deposited data

Results flagged for a closer look

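For the 201 genes named, the highest or lowest of a region's 8 arrays stood far from the other 7 in 38 of 402 combinations of gene and region. Chance gives about 1 in 20, or 20 of 402. Values in parentheses are log2 intensities of the array that stood apart.

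Ala amygdala array 1, the array high in striatum and in cerebellum markers, was far above the other amygdala arrays for Adcy5 (11.03), Arc (8.873), Car8 (11.08), Klf9 (13.32) and Rarb (10.08). Car8, a gene of cerebellar Purkinje cells, averaged 18.0 in cerebellum and 6.93 in striatum. It was far below them for Arhgap6 (9.097), Epha6 (11.04), Grik1 (8.305), Htr2c (10.7), Nr2f2 (11.3) and Timp2 (14.02). Ala amygdala array 2 had the highest choroid plexus and CA1 markers among amygdala arrays. It was far above the others for C1ql2 (7.721), Cabp7 (10.93), Ccbe1 (7.0), Kcnn2 (13.0), Nr3c2 (13.03), Olfml2b (6.704), Rasd1 (5.116), Shisa6 (12.72), Spink8 (7.985), St18 (11.83) and Syna (6.985). It was far below them for Cntn6 (7.906), Mef2c (14.26), Plxnd1 (7.13), Rasgrf2 (10.75), Rprm (8.956) and Sema3a (6.823).

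Among hippocampus arrays, Ala array 18 was far above the others for Sema3e (12.9) and Tshz1 (7.887), and Ala array 19 for Tpbg (6.97). Thr array 21 was far above for Adcy1 (13.87) and far below for the myelin gene Opalin (9.039). Thr array 23, which had the highest thalamus markers, was far above for Cdh22 (6.456), Prkcd (12.61) and Tacr1 (6.015). Thr array 24 was far above for Dio1 (5.17) and far below for Gabrg1 (7.173).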

How the results depend on the processing

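The counts of genes higher and lower in amygdala, 348 and 365, moved by over 1.5 times only with the size threshold: they were 891 and 1079 at 0.5 log2 units and 63 and 72 at 2 log2 units. Under the other alternatives run, including all 40 arrays, other filters, scalings and variance models, array weights and tissue-marker covariates, they stayed between 312 and 460 and between 344 and 508. Leaving out 1 array gave 319 to 365 and 344 to 398. Within Ala arrays the count of 541 became 957 at 0.5 units, 100 at 2 units, 860 without 4 arrays and 862 without 6, and 409 to 657 without 1 array. Within Thr arrays 839 became 1598 and 182 at those sizes and 724 to 893 without 1 array. The count of genes whose region difference depended on genotype was 0 in limma under each alternative run, with 589 genes at an unadjusted p under 0.05 in the reported fit.

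Of 197 called named genes, 170 kept their call under each alternative other than a changed threshold. The 27 others are Adcy5, Aldh1a2, Arhgap12, Cacna1a, Cacna2d3, Cacng4, Car8, Cdh1, Cdh18, Chgb, Fgf10, Gad2, Glra1, Htr5b, Lrrtm1, Nptx2, Pcdh10, Ppp1r1b, Rarb, Slc22a6, Slc32a1, Sst, Syt2, Tenm2, Trpc4, Trpc7 and Vav3. Dio2 passed the size threshold without 6 arrays. The difference of Pnma5, not called, was 0.03 and changed sign to -0.01117 under quantile normalization and to -0.003653 without Thr amygdala array 6; leaving out 1 array gave -0.003653 to 0.06699. The cause was not tested. Of 3060 counts over gene lists, 206 moved by over 1.5 times. The fits without Ala amygdala array 1 and Thr amygdala array 5 and without 6 arrays were chosen after seeing the data, Thr amygdala array 5 for its low Trh and Trhr. No paired analysis was possible, because no label ties an array to an animal and the arrays' label numbers all differ. Whether amygdala and hippocampus arrays came from the same animals is not known, and the fit left out any such pairing.

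Levels near the negative controls limit the sizes: in 102 of the 348 higher and 72 of the 365 lower genes, the region with less signal was at or below 5.99, and in 36 and 16 both regions were.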

Other observations

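Neocortical layer markers, which also mark the cortex-like neurons of the basolateral amygdala, were higher in 5 and lower in 2 of 17 tested genes. Mef2c, a MADS-box transcription factor, Rasgrf2, an exchange factor of Ras proteins, and Rprm, a cell-cycle gene of deep-layer neurons, were among the higher genes. On Ala amygdala array 2 these 3 genes stood at 14.26, 10.75 and 8.956, far below the other amygdala arrays. Scnn1a, a sodium channel subunit of layer 4 neurons, was lower in amygdala by 1.80.

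Extracellular matrix genes gave 2 higher and 4 lower of 23 tested. Timp2, an inhibitor of matrix metalloproteinases, was higher by 1.91, whereas Hapln4 (-1.35) and Hapln2 (-1.18), link proteins of perineuronal and perinodal matrix, were lower. In the Wnt pathway, the receptor Fzd1 (1.32) and the secreted Dkkl1 (1.73) were higher and Dkk3 (-2.36) was lower, of 22 genes tested.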
